A study of Mus musculus with 6 samples.

Results

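This account describes 269 short stretches of the mouse genome at which DNA methylation stood higher in both AOM/DSS colon epithelium libraries than in all 4 libraries from AOM/DSS plus curcumin and control mice. They were picked by their levels: a region had to lie on one of the 19 autosomes, to have calls in all 6 libraries, and to show a lower AOM/DSS level at least 8 percentage points above the highest level of the other 4 libraries. That distance is called the gap below, and the 269 are called gained regions for short, although no test entered the choice. Of 209687 captured regions, 177443 were autosomal with calls in all 6 libraries, and the gained regions are 0.152% of these. All mice were C57BL/6, 18 weeks old. The AOM/DSS group (2 libraries) had received azoxymethane, a chemical colon carcinogen, and dextran sulfate sodium, which injures and inflames the colon lining. The AOM/DSS plus curcumin group (2 libraries) had the same induction and curcumin, the yellow polyphenol of turmeric, and the control group (2 libraries) had neither. The labels give neither doses nor schedules. DNA came from mucosal scrapings of colon after the proximal segment, and any tumors in the right part, had been cut away, so the levels belong to the tissue that was left. No label says whether the 2 libraries of a group are 2 mice, and p-values below measure only the spread between these libraries.

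Methylation of cytosine in CpG dinucleotides is copied to the daughter strand at replication by Dnmt1, is laid down anew by Dnmt3a and Dnmt3b, and is removed through oxidation by the Tet enzymes. CpG-dense promoters are normally free of it, while most of the remaining genome carries it. In colon cancer and in chronically inflamed colon, gains at CpG islands alongside losses elsewhere are a known pattern, and gains at promoters usually go with silent genes. Bisulfite sequencing reads methylation because unmethylated cytosine is converted and methylated cytosine is not. The level of a region here is the percentage of methylated calls over its CpGs. In scraped mucosa, a change in the mixture of cells and a change within cells cannot be told apart in such a level.

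The libraries held 24682973 to 30727568 calls. Averaged over all autosomal regions with calls in all 6, the level was 40.3% and 40.6% in the AOM/DSS libraries, 41.0% and 40.8% in the curcumin libraries, and 41.5% and 41.2% in the controls. AOM/DSS was therefore the lowest group on average, and the gained regions lie against that direction. The deposited files give positions and no genes, and the gene table at hand belongs to another build, so no region was tied to a gene, a promoter or a cell type marker. No sequence is shown, because no genome of the files' build, mm9, was at hand. Positions are those of the files.

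The first question for such a set is how many regions the same rule finds for libraries that do not form the AOM/DSS pair. The 269 regions of the AOM/DSS pair ranked 10th among the 15 possible pairs. The 14 other pairs gave 163 to 579 regions, with a median of 326; 9 gave more and 5 gave fewer. The control pair gave the most, 579, and the curcumin pair gave 278. Among the 12 pairs made of 1 library from each of 2 groups, the counts ran from 163 for AOM/DSS replicate 0 with curcumin replicate 1 to 440 for curcumin replicate 0 with control replicate 1. The number of gained regions is thus within the range that pairs from 2 different groups gave in these libraries. AOM/DSS and curcumin libraries share the AOM/DSS treatment. Pairs of a control with a library of another group ran from 190 to 440, which also holds 269. In the opposite direction, regions at least 8 points lower in both AOM/DSS libraries than in the other 4 numbered 922, above the 208 to 422 of the other 14 pairs. At a gap of 20 points or more the AOM/DSS pair had 7 regions and the others 1 to 7, and 3 other pairs also had 7. With at least 100 calls in every library the AOM/DSS pair had 34 regions, the other pairs 10 to 74, and 6 of the 14 had more.

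**Figure D1:**
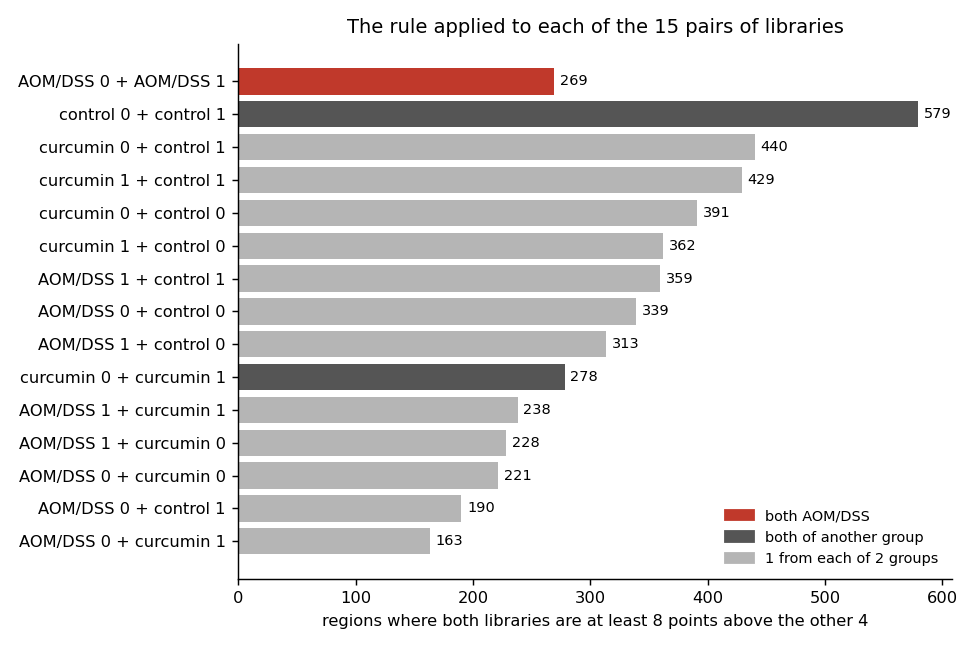
Number of autosomal regions (x axis) at which both libraries of a pair stood at least 8 points above the other 4, for each of the 15 pairs (y axis; the number after each group is the replicate). The AOM/DSS pair, drawn first, has 269 regions, and the other pairs run from 163 to 579.

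At the gained regions the levels were intermediate. The median level was 48.7% and 51.9% in the AOM/DSS libraries, 32.5% and 31.3% in the curcumin libraries, and 31.3% and 29.4% in the controls. Every gained region is apart by construction, so these medians describe the choice and test nothing. The median difference between AOM/DSS and control was 17.2 points, with a range from 9.27 to 42.9, and that between curcumin and AOM/DSS was -17.1 points. Gaps ran from 8.01 to 28.3 points with a median of 9.87, and 129 of the 269 had a gap of at least 10 points, 64 of at least 12 and 20 of at least 15. Most of the set therefore sits near the margin.

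**Figure D2:**
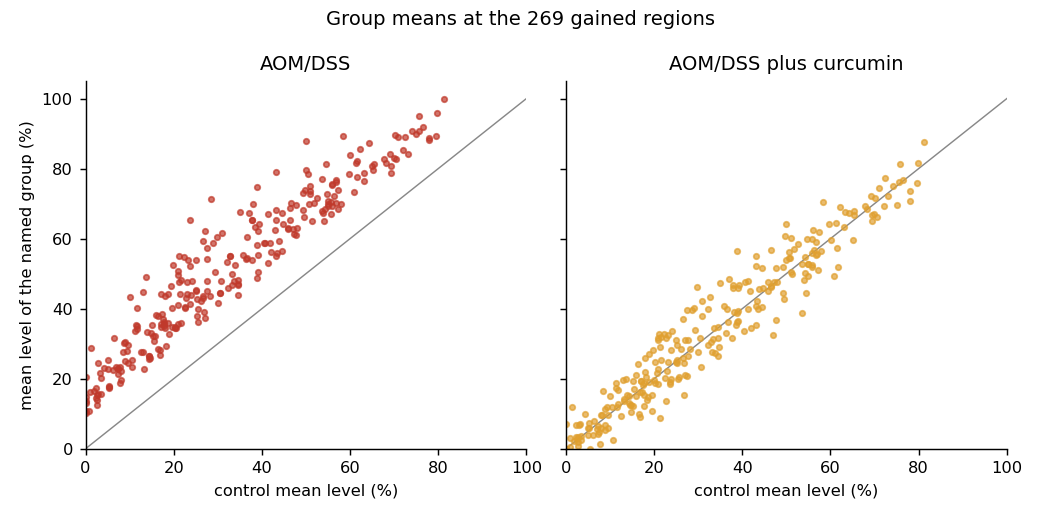
Mean level of the AOM/DSS libraries (left) and of the AOM/DSS plus curcumin libraries (right) against the mean level of the control libraries, in percent, with a point for each gained region and the line of equal levels. The AOM/DSS points lie above the line by construction, by a median of 17.2 points, and the curcumin points scatter around it with a median of 0.347 points.

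By the mean of the 4 curcumin and control libraries, 91 gained regions (33.8%) lay at 10 to 30%, 68 (25.3%) at 30 to 50% and 53 (19.7%) at 50 to 70%, classes that hold 11.4%, 8.99% and 11.0% of all autosomal regions. Regions under 5% gave 21 members (7.81%), although 29.8% of all regions are that low, and no member came from above 90%, where a gain of this size leaves little room. At 35 members both AOM/DSS libraries reached at least 50% while the 4 others stayed under 50%, a pattern that 136 of all autosomal regions (0.0766%) showed, most of them with a gap under 8 points.

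The region with the largest gap lay at chr8:88999743-88999776, with 3 CpGs. Its levels were 58.3% and 72.2% in AOM/DSS, 30% and 26.5% with curcumin, and 24.2% and 23.3% in control. Both AOM/DSS libraries stood far above the rest, but each level rested on only 20 to 36 calls, and the 95% Wilson interval of AOM/DSS replicate 0, 42.2 to 72.9%, overlapped that of curcumin replicate 0, 14.5 to 51.9%. Such intervals cover counting error only, and they are too narrow even for that, since calls of a read are not independent. The second, chr9:111191955-111191971 with 4 CpGs, stood at 52.1% and 52.4% in AOM/DSS, 10.3% and 28.0% with curcumin, and 25% and 22.2% in control, on 29 to 50 calls. The AOM/DSS replicates nearly coincided there, whereas the curcumin replicates lay 17.7 points apart. The third, chr18:75576279-75576335 with 3 CpGs, stood at 77.8% and 80% in AOM/DSS, 53.4% and 50.9% with curcumin, and 55.2% and 31.3% in control, where the replicates were far apart.

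Ranks 4 to 12 show the same arrangement at different levels. At chr17:81125695-81125757 the levels were 80% and 82.5% in AOM/DSS, 48.8% and 40% with curcumin, and 51.1% and 57.9% in control, so that here the controls lay above the curcumin libraries. The region chr11:33478936-33478949 had 57.6% and 66.7% in AOM/DSS, 25% and 37.0% with curcumin, and 20.7% and 33.3% in control. No other captured region lies within 24382 bases of it. At chr1:38857296-38857523 the levels were 77.5% and 82.0% in AOM/DSS, 54.3% and 53.5% with curcumin, and 57.4% and 42.5% in control. The region chr1:57040652-57040700 was low outside AOM/DSS, with 38.5% and 41.9% in AOM/DSS, 18.5% and 6.82% with curcumin, and 14.8% and 8.70% in control. At chr7:53481968-53482035 the levels were 80.3% and 76.4% in AOM/DSS, 55.6% and 53.7% with curcumin, and 56.9% and 44.2% in control, on 61 to 102 calls, among the deeper of the 12. At the last regions of this range both curcumin libraries lay above both controls. At chr11:59624431-59624605 (10 CpGs) the levels were 62.6% and 56.2% in AOM/DSS, 36.0% and 38.0% with curcumin, and 33.3% and 19.7% in control. At chr13:58770114-58770274 (11 CpGs) they were 67.2% and 67.4% in AOM/DSS, 49.4% and 47.5% with curcumin, and 43.5% and 30.6% in control.

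**Figure D3:**
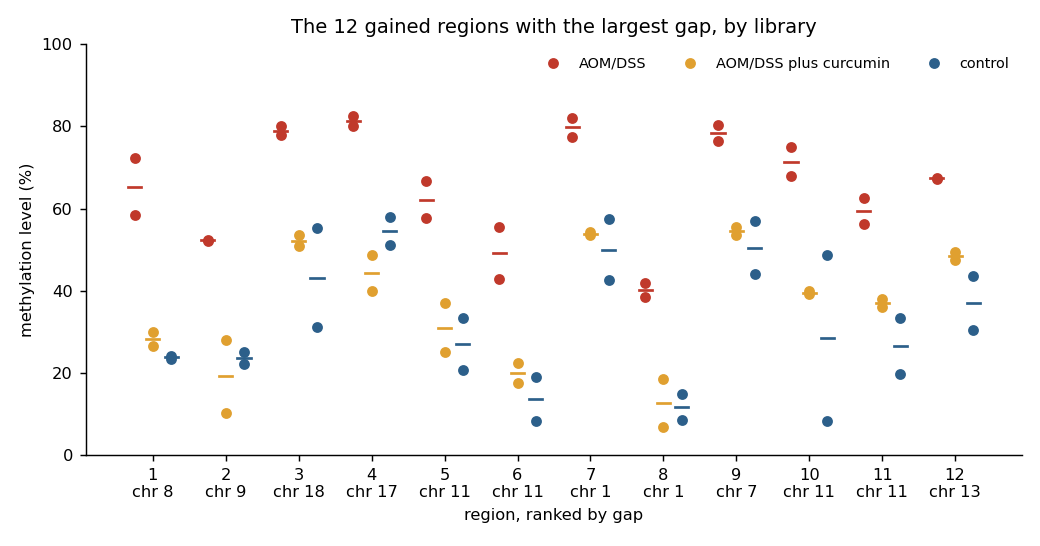
Methylation level in percent (y axis) of the 12 gained regions with the largest gap (x axis, rank and chromosome), with a point per library and a bar at the mean of the 2 libraries of a group. The AOM/DSS points lie above all others in each region by construction, while control replicates are up to 40.3 points apart, at rank 10 on chromosome 11.

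Counting error was read from intervals on the same levels that chose the members, so it describes them and adds no support. At 7 of the 269 gained regions the 95% Wilson intervals of both AOM/DSS libraries lay above those of all 4 other libraries, as they did at 13 of all autosomal regions (0.00733%). With the 8-point margin the other 14 pairs of libraries had 0 to 10 such regions, with a median of 3. The longest of the 7 was chr7:90017517-90017933, which with 33 CpGs was also the member with the most CpGs. It stood at 36.7% and 45.5% in AOM/DSS, 23.6% and 21.8% with curcumin, and 22.9% and 18.98% in control, on 385 to 626 calls. On chromosome 11, chr11:78766136-78766509 with 22 CpGs had 18.3% and 27.0% in AOM/DSS, 7.38% and 5.35% with curcumin, and 8.58% and 6.18% in control, on 393 to 443 calls. Both are dense, deeply covered and low to intermediate outside AOM/DSS. The region chr2:152655044-152655422 (16 CpGs, 333 to 520 calls) stood at 27.7% and 24.2% in AOM/DSS, 14.5% and 10.3% with curcumin, and 14.6% and 14.7% in control. At chr9:71391278-71391596 (10 CpGs, 134 to 174 calls) the levels were 15.6% and 15.7% in AOM/DSS, 2.84% and 4.60% with curcumin, and 4.91% and 2.14% in control. A further member, named after its values were seen, chr16:10502122-10502335 (7 CpGs, 80 to 139 calls), had 38.8% and 35.5% in AOM/DSS, 13.8% and 16.8% with curcumin, and 17.3% and 17.9% in control. The third region by gap, on chromosome 18, also belongs to the 7.

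The last of the 7, chr14:4519764-4519818, was the deepest member, with 556 to 683 calls over 3 CpGs. Its levels were 55.2% and 53.4% in AOM/DSS, 22.8% and 39.5% with curcumin, and 26.0% and 29.2% in control, and the curcumin replicates lay 16.7 points apart. It averaged 208 calls per CpG and library, against a median of 12.7 over the gained regions and 14.9 over all autosomal regions. Whether this depth reflects sequence present in several copies was not tested.

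Among the members with the most CpGs, 4 remain to be described. The region chr11:71864518-71864785 (29 CpGs) had 22.8% and 22.7% in AOM/DSS, 14.7% and 12.4% with curcumin, and 12.8% and 13.7% in control. The region chr13:55480684-55481084 (27 CpGs) had 47.95% and 49.4% in AOM/DSS, 36.0% and 36.3% with curcumin, and 39.7% and 37.9% in control. Replicates lay close together in every group at both, and the gaps, 8.03 and 8.25 points, were among the smallest in the set. The region chr6:28783442-28783609 (17 CpGs) was nearly unmethylated outside AOM/DSS, with 12.9% and 19.7% in AOM/DSS, 2.14% and 3.85% with curcumin, and 1.14% and 0.833% in control. The region chr3:94283562-94283985 (16 CpGs) had 17.8% and 17.7% in AOM/DSS, 5.45% and 6.36% with curcumin, and 3.85% and 6.67% in control.

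At 14 gained regions all 4 curcumin and control libraries were under 5%. Those with the largest gaps reached only modest levels in AOM/DSS. The largest, chr12:83223184-83223283 (4 CpGs), had 16.7% and 23.8% in AOM/DSS, 2.99% and 1.85% with curcumin, and 3.45% and 3.51% in control. At chr13:49321072-49321235 the levels were 17.4% and 15.6% in AOM/DSS, 1.961% and 2.70% with curcumin, and 3.70% and 0% in control. At chr4:133389444-133389605 they were 14.7% and 15.9% in AOM/DSS, 3.61% and 1.69% with curcumin, and 3.77% and 1.39% in control. These 3 rest on no more than 106 calls in any library, while the other regions of the 14 given above had up to 176 calls on chromosome 6 and up to 174 on chromosome 9. Complete absence of methylated calls outside AOM/DSS was seen at chr5:124901359-124901477, with 17.9% and 11.8% in AOM/DSS on 28 and 34 calls, and at chr19:30106990-30107038, with 9.76% and 11.9% in AOM/DSS on 41 and 42 calls. A count of 0 there allows levels of up to 11.1 to 12.5% in the 4 other libraries of the first (3 calls of each total) and of up to 6.38 to 13.6% in those of the second, so neither gain is clear of counting error in every library.

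On the margin, the last members were chr16:76201814-76201887, chr10:107724274-107724315 and chr11:98699259-98699532, with gaps of 8.02, 8.01 and 8.01 points. The first regions left out were chr4:54045268-54045549, chr13:37404917-37405003 and chr3:116317298-116317541, with gaps of 7.99, 7.98 and 7.97 points. At chr11:98699259-98699532 the levels were 27.3% and 26.2% in AOM/DSS, 16.4% and 15.9% with curcumin, and 18.2% and 15.5% in control. Just outside, chr3:116317298-116317541 had 17.3% and 19.4% in AOM/DSS, 6.43% and 7.33% with curcumin, and 6.62% and 9.33% in control. Nothing but the margin parts these regions.

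Members were spread over all 19 autosomes, from 1.02 per 1000 regions on chromosome 10 to 2.22 per 1000 on chromosome 7, and chromosome 11 held the most, 28. Only 4 members had another member as their next region within 1000 bases, in 2 pairs. The pair on chromosome 11 held members of rank 10 and 6. Its first region, chr11:115672562-115672603 (4 CpGs), stood at 67.8% and 75% in AOM/DSS, 39.1% and 40% with curcumin, and 48.6% and 8.33% in control. The second, chr11:115672739-115672888 (8 CpGs), stood at 42.9% and 55.5% in AOM/DSS, 22.4% and 17.6% with curcumin, and 18.99% and 8.33% in control. The next region after them, chr11:115672995-115673130, is no member, but its levels had the same order, with 33.3% and 47.2% in AOM/DSS, 17.9% and 23.1% with curcumin, and 29.2% and 16.1% in control. AOM/DSS thus stood above the other 4 libraries at 3 captured regions in a row, in a stretch bounded by regions of at most 10.3% on either side. The pair on chromosome 3 was smaller. Its first region, chr3:101607749-101607920, stood at 38.2% and 34% in AOM/DSS, 19.6% and 5% with curcumin, and 13.6% and 21.7% in control. Its second, chr3:101608444-101608773, stood at 41.8% and 41.2% in AOM/DSS, 28.0% and 27.1% with curcumin, and 31.8% and 28.3% in control.

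The dense member chr7:90017517-90017933 lay at a boundary. The 7 captured regions nearest before it were almost free of methylation in every library, with at most 5.85% in any of them. The region directly after it, chr7:90017949-90018361, stood at 57.7% and 61.9% in AOM/DSS, 60.1% and 59.8% with curcumin, and 62.2% and 37.1% in control, and the one after that at 91.5% or more in every library. The member itself is the only captured region of this stretch at which AOM/DSS stood apart. At chr6:28783442-28783609 the 3 captured regions before it were likewise at 3.37% or less in every library.

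**Figure D4:**
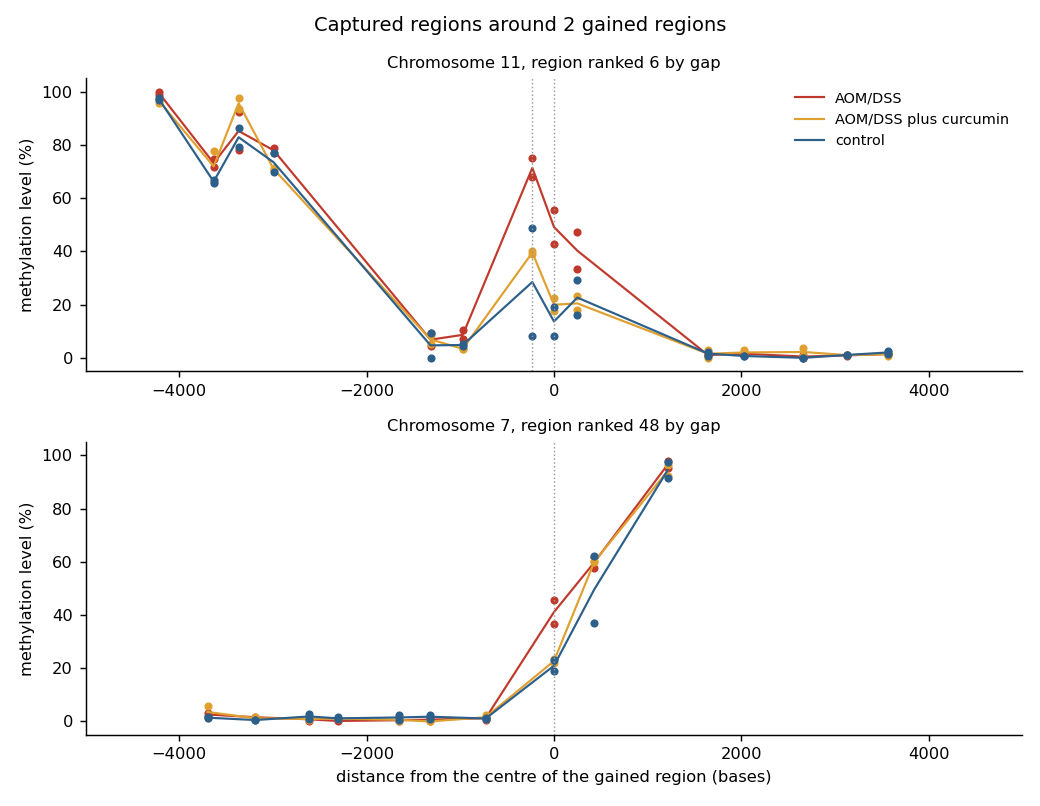
Methylation level in percent (y axis) of captured regions around the chromosome 11 member of rank 6 (top) and the chromosome 7 member of rank 48 (bottom), against the distance in bases from the member's centre (x axis). Points are libraries, lines join group means between neighbouring captured regions and do not measure the bases between them, and dotted lines mark gained regions. On chromosome 11 AOM/DSS stood higher at 3 regions in a row and on chromosome 7 at 1, the gained regions among them by construction.

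Neighbours were read for the whole set, since the rule did not use them. Of the 269 members, 174 had a next region within 1000 bases, which gave 215 such regions that are not members themselves. Both AOM/DSS libraries stood above the other 4 at 31 of the 215 (14.4%), against 6.51% of all autosomal regions and 6.81% of regions of the same levels. Their median difference between AOM/DSS and the mean of the other 4 libraries was 0.633 points, against -0.214 points over all regions. By group means alone, AOM/DSS lay above the mean of the other 4 at 60.9% of the neighbours, against 45.8% of all regions and 47.0% of regions of the same levels, where the median difference was -0.610 points. The neighbours thus leaned the same way as the members by a small distance. Neighbours were not read for the other pairs of libraries, and regions of the same levels were not matched in depth. Nearby regions of a library need not be independent, so this lean is no separate evidence of a gain. Whether reads that span 2 regions add to this was not tested.

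In features that the rule did not use, the members were small and shallow. The median member had 4 CpGs over 115 bases and 41 calls in its shallowest library, against 7 CpGs, 189 bases and 82 calls over all autosomal regions. The median number of CpGs per 100 bases was 4.08 and 4.02. Members with 3 CpGs made up 30.1% of the set, against 17.1% of all regions, and members with 20 or more made up 1.49%, against 12.8%. The share of regions that met the rule was 0.334% at 20 to 49 calls in the shallowest library, 0.129% at 50 to 99, 0.0599% at 100 to 199 and 0.0219% at 200 or more. The share of members was lower at every step up in depth, and the part of depth in the choice was not tested.

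Tests per region used edgeR's quasi-likelihood test with Benjamini-Hochberg adjustment over 179922 regions. The comparison of AOM/DSS with control was part of the choice, so its calls among members are only a description. None of the 269 had an adjusted p under 0.05 together with group means at least 10 points apart (0.00389% of all regions did), and limma on log2 ratios also called 0. The smallest adjusted p in edgeR was 0.103, at chr6:28783442-28783609, where AOM/DSS averaged 16.3% ± 4.84 and control 0.985% ± 0.214 (SD, n = 2 each). At an unadjusted p under 0.05, edgeR counted 168 members (62.5% of members, against 6.34% of all regions). In limma there were 176, against 11046 of the 179922 regions. With 10 points between means edgeR counted 165 (61.3% of members, against 2.82% of all regions). In the comparison of curcumin with AOM/DSS, which also entered the choice, edgeR and limma called 0 members (0% of all regions in edgeR). At an unadjusted p under 0.05 edgeR counted 175 (65.1% of members, against 5.25% of all regions). In limma there were 170, against 9980 of the 179922 regions. With 10 points between means edgeR counted 173, against 2.00% of all regions. The lowest edgeR adjusted p was 0.302, at chr11:78766136-78766509, with 6.36% ± 1.44 with curcumin and 22.7% ± 6.18 in AOM/DSS (SD, n = 2 each). Leaving out control replicate 0 leaves 1 control library, which matters at 2 members whose controls lay far apart. At the first region of the chromosome 11 pair it drops the control at 48.6% and keeps that at 8.33%. The difference between AOM/DSS and control there was then 63.1 points, against 42.9 points with both controls. At chr14:106300255-106300277, where the controls lay 26.1 points apart, it was 45.6 points. Without 1 curcumin library edgeR called 0 members against control, and without 1 control library 0 members in the comparison of curcumin with AOM/DSS.

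The comparison of curcumin with control was not what the rule chose on, since it treats those 4 libraries alike. The rule does hold down the highest of them, and what this does to their spread was not tested. At members the replicates lay a median of 4.49 points apart with curcumin and 4.52 in control. Over all autosomal regions, not matched for level, these were 2.81 and 2.95 points. At the gained regions curcumin lay on either side of control. The size of the difference, whatever its sign, had a median of 3.55 points over the members, against 2.03 points over all autosomal regions and 3.63 points over regions of the same levels. The median signed difference, curcumin minus control, was 0.347 points over the members, with 146 members above 0, 118 below and 5 at 0. It was -0.169 points over all autosomal regions and -0.596 points over regions of the same levels. Both curcumin libraries lay above both controls at 49 members (18.2%, against 14.3% of all regions and 13.7% at the same levels). They lay below both at 38 (14.1%, against 17.7% and 18.1%). In edgeR 0 members were called (0% of all regions). At an unadjusted p under 0.05 edgeR counted 3, or 1.12% against 4.17% of all regions, and 1 with 10 points between means, against 1.46%. In limma 0 were called, and 7 had an unadjusted p under 0.05, against 9346 of the 179922 regions. Over the same 269 members the median was 0.837 points without control replicate 0 and -0.271 points without control replicate 1, and 0.239 and 0.974 points without curcumin replicate 0 or 1, so the sign of this small difference changed with 1 control library.

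The rule does not ask that curcumin stand at the control level. At 4 members, chosen here after their values were seen, both curcumin libraries lay at least 8 points above both controls (1.49%, against 0.732% of all regions and 1.26% of regions of the same levels), and at 0 members at least 8 points below both (against 1.16% and 2.03%). The one with the largest difference of group means, 17.6 points, was chr19:7012723-7012976 (7 CpGs, 27 to 79 calls), with 73.7% and 75.7% in AOM/DSS, 59.3% and 53.5% with curcumin, and 33.3% and 44.3% in control. The deepest, chr5:138072723-138072880 (5 CpGs, 73 to 116 calls), had 76.3% and 71.3% in AOM/DSS, 60.3% and 61.3% with curcumin, and 49.6% and 50% in control. At both the curcumin level was intermediate, so that the description as a gain absent with curcumin holds there only in the sense of the margin. The share of 1.49% is near the 1.26% at the same levels, so these regions show nothing particular to the members.

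The rule can be taken apart into its 2 conditions. Both AOM/DSS libraries stood at least 8 points above both controls at 1342 regions (0.756% of all), and 269 of these (20.04%) were also at least 8 points above both curcumin libraries. Over the 1342 the median level was 52.1% in AOM/DSS, 42.7% with curcumin and 34.5% in control, so that curcumin lay 45.3% of the way from control to AOM/DSS by the median over regions. Chosen the other way, with AOM/DSS at least 8 points above both curcumin libraries, 1502 regions (0.846%) had a median of 53.2% in AOM/DSS, 36.1% with curcumin and 43.7% in control, and control lay 46.2% of the way from curcumin to AOM/DSS. In either direction the group that took no part in the choice lay near the middle. The choice itself takes AOM/DSS high and the other group low. A position between them is therefore partly fixed by the choice and measures no effect of curcumin. Both comparisons hold the same AOM/DSS libraries.

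Whether a gain seen in some libraries is seen in others was read in libraries that took no part in the choice. When regions were chosen with AOM/DSS replicate 1 and the 4 other libraries, 3085 met the margin, and AOM/DSS replicate 0 stood above all 4 at 41.8% of them, against 18.0% of all regions of the same levels. When replicate 0 chose, 1841 regions met the margin, and replicate 1 stood above all 4 at 48.8%, against 20.1%. By at least 8 points the left-out library did so at 8.72% and 14.6%, against 1.74% and 2.92% of regions of the same levels. Both shares are the same 269 regions. The left-out library is set there against 4 libraries that had been chosen to be low, so these shares are not free of the choice.

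A choice with 1 library of each group, read in the other 3, uses none of the values that are then read. Over the 8 ways to do this, 4740 to 7581 regions had the AOM/DSS library at least 8 points above the curcumin and the control library. In the 3 unused libraries AOM/DSS stood above both others at 32.8 to 38.1% of the chosen regions, against 29.4 to 33.0% of all regions of the same levels. At least 8 points above, it stood at 7.73 to 12.4%, against 4.28 to 7.09%. The median difference between the unused AOM/DSS library and the mean of the 2 others ran from -0.238 to 1.01 points, against -1.02 to -0.456 points at the same levels. With at least 100 calls in every library the share above both ran from 35.2 to 45.7%, against 30.8 to 34.5%, over 725 to 1423 chosen regions. At least 8 points above, these deeper regions stood at 5.26 to 11.9%, against 2.32 to 4.84%. The share by 8 points was 1.48 to 1.81 times that at the same levels in the 8 ways, and 1.53 to 2.54 times with at least 100 calls. At gains chosen in 3 libraries, AOM/DSS thus stood higher in the other 3 more often than at regions of equal level. The excess was small, with a median of 34.1% over the 8 ways, against 31.5%. Of 3 libraries that did not differ, each would be highest at about 1 region in 3. A share of this size therefore need not reflect a gain. By 8 points AOM/DSS stood higher at a minority of the chosen regions. Regions of equal level were matched neither in depth nor in the spread between libraries. The share at least 8 points below was not counted, so the part of depth and spread was not tested. The 8 ways share libraries and are not independent, and no p is given.

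**Figure D5:**
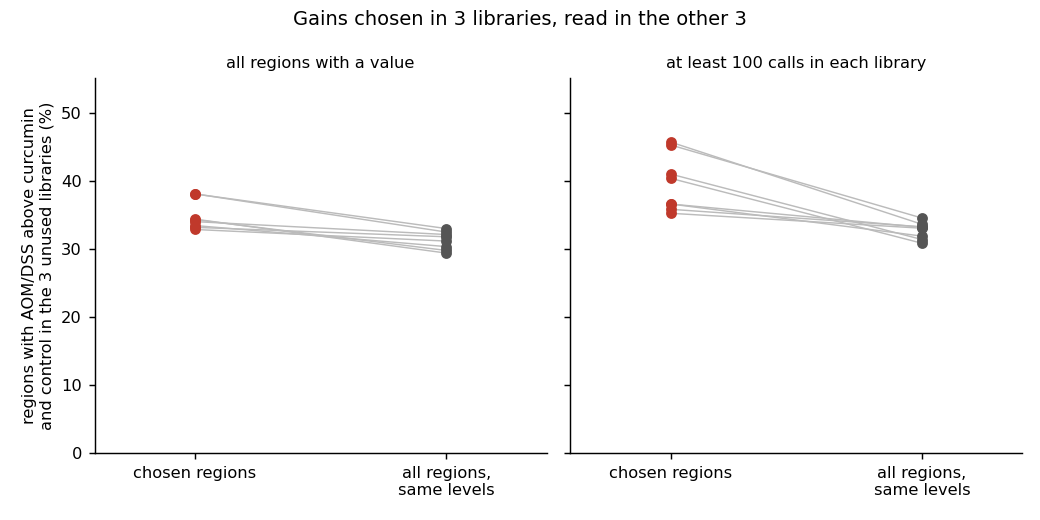
Percentage of regions at which AOM/DSS stood above curcumin and control in the 3 libraries not used to choose them (y axis), for regions chosen as gains and for all regions of the same levels, without a further minimum of calls (left) and with at least 100 calls in every library (right). Each line is 1 of the 8 ways to choose 1 library per group; chosen regions run from 32.8 to 38.1% on the left and from 35.2 to 45.7% on the right.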

How the data were processed

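Per the labels, bisulfite libraries were made after capture with the SureSelectXT Mouse Methyl-Seq kit of Agilent. Bismark 0.15.0, ChIPseeker 1.10.3, R 3.4.0 and build mm9 appear in the submitters' processing notes, without their roles. The deposited files give counts: per region and library the calls, the methylated calls and the CpGs. Values under 20 calls are blank. The sources used here do not say how regions were drawn or whether duplicates were taken out.

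Levels were computed in Python 3.11.15 (numpy 2.4.6, pandas 2.3.3, scipy 1.17.1). Tests used edgeR 4.0.16 in R 4.3.3 on methylated and unmethylated calls, with a coefficient per library for coverage and per group for methylation, and 1 spread for all 6 libraries. The fit was tried on simulated data with larger changes, at deeper regions, than most members have. Its power for changes like those of the members was not tested. limma 3.58.1 on log2((methylated + 0.5)/(unmethylated + 0.5)) was an alternative, with other margins, call minimums, libraries left out and a replicate block. Same levels means classes of mean level weighted as in the chosen regions. Named regions follow a fixed rule: largest gap, most CpGs, adjacent members, under 5% elsewhere, most calls, nearest the margin; others are named as having extreme values. Members, lists and rules were chosen with earlier results of these data known. Gene lists were not applied, as regions were not tied to genes.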

Additional observations from a re-analysis of the deposited data

How the results depend on the processing

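The number of gained regions moved with the margin, from 269 at 8 points to 922 at 5, 64 at 12 and 7 at 20, and with depth, to 103 with at least 50 and 34 with at least 100 calls in each library. It was 7 with separate 95% Wilson intervals, an alternative added after the data were seen. Without 1 library it ran from 518 to 3085, as each removal loosens the rule: 3085 and 1841 without AOM/DSS replicate 0 or 1, 560 and 518 without curcumin replicate 0 or 1, and 648 and 533 without control replicate 0 or 1. It was 240 with levels shrunk by 1 call of each kind and 272 with all chromosomes. The median difference between curcumin and control ran from -0.398 to 1.13 points without 1 library and regions chosen anew, and from -0.271 to 0.974 points over the same members (added after the data were seen). The share of regions with the left-out AOM/DSS library above the rest was 44.9% and 50.2% for replicate 0, and 53.7% and 55.9% for replicate 1, at 50 and 100 calls. The median share read in 3 unused libraries was 34.1%, or 38.5% at 100 calls.

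Over all regions, edgeR called 7 for AOM/DSS against control, 1 at 50 or 100 calls, 1 with only the 4 libraries compared and 0 with limma. Without 1 library this ran from 1 to 8: 3 without AOM/DSS replicate 0, 2 without control replicate 1, 8 without control replicate 0 and 1 without each of the others. For curcumin against AOM/DSS it called 0, but 1 with only the 4 libraries compared, and 0 to 1 without 1 library (1 without either control). For curcumin against control it called 0, and 0 to 1 without 1 library (1 without control replicate 0). With the replicate number as a block, AOM/DSS against control had 41 calls, 5 of them gained regions, and curcumin against AOM/DSS had 1. The labels do not say that numbers pair libraries. Same-numbered deviations correlated at 0.0676 for AOM/DSS with control, 0.00254 for curcumin with AOM/DSS and 0.00993 for curcumin with control. Same-numbered pairs of AOM/DSS and control gave 339 and 359 regions by the rule, and the others 190 and 313. For curcumin and control these were 391 and 429, and 440 and 362. Whether the numbers mark a shared factor was not tested. The causes of these moves were not tested. Calls per region limit every level here: members had a median of 41 in their shallowest library.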
